A study of Mus musculus with 6 samples.

Results

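The genes described here are 196 mouse gene models whose only symbol in the expression table is Gm followed by a number. They were chosen by level: a row of that name pattern was taken when its mean over the 6 libraries, each scaled to its own sum, reached 20 CPM (reads per 1000000 reads of the library), with Gm15564 and Gm23935 left out by name. The 196 are a small part of 55291 rows, of 27593 Gm-numbered rows and of 11196 Gm-numbered rows with a read in any library. The choice used the mean level over both genotypes and no difference between them. Of the 196, 169 reached the threshold in both genotype means, 8 in the Nat10 cKO mean only and 19 in the WT mean only. Just inside the threshold were Gm5820 and Gm15389, at 20.2 CPM each, and just outside it Gm11413 and Gm30531, at 19.8 and 19.7 CPM.

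The libraries came from fully grown oocytes of female mice given PMSG, a gonadotropin that drives follicle growth. For the PMSG time the labels give 36 h and the series' design text 32 to 48 h. The Nat10 cKO oocytes carried a conditional knockout of Nat10 made with Gdf9-cre, whose promoter is active in oocytes, and the others were WT; the labels do not give the mice's ages, the Cre or floxed status of the WT mice, or which animals gave which library. There were 3 Nat10 cKO and 3 WT libraries, each from 10 oocytes lysed together, with poly(A) RNA copied by the Smart-seq2 protocol and an ERCC spike-in added. NAT10 is the acetyltransferase that makes N4-acetylcytidine in RNA, and the series asks what its loss does in oocytes.

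A Gm number is a placeholder that the mouse nomenclature gives to a predicted or annotated gene model with no functional name yet, so the group mixes long non-coding RNAs, pseudogenes and protein-coding genes of expanded families. Mouse oocytes are known for many transcripts of this kind, a share of which start in long terminal repeats of retrotransposons. They are also known for oogenesins and other members of the PRAME family, leucine-rich repeat proteins whose genes stand in clusters and are made mainly in germ cells and early embryos.

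The starts of 3 of the non-coding or pseudogene models resemble one another and are given first. All 3 models were called lower in Nat10 cKO oocytes, and they were picked for their sequence after their values had been seen. Each window runs from 250 bases before to 50 bases after the gene's start in RefSeq, on GRCm38.p6, written 5′ to 3′ on the gene's strand. Capitals mark the stretch that aligned with another of the 3 windows. Gm36480 is at chr15:90353460-90353759 on the plus strand, Gm6150 at chr10:9684472-9684771 on the plus strand and Gm3143 at chr3:34716613-34716912 on the minus strand.
Gm36480: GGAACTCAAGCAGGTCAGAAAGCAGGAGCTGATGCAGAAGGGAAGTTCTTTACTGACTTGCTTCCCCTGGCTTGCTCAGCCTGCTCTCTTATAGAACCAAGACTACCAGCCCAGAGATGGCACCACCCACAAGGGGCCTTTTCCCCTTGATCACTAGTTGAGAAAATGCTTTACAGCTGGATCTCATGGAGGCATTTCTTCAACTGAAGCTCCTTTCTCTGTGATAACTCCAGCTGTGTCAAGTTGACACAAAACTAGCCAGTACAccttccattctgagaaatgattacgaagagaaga
Gm6150: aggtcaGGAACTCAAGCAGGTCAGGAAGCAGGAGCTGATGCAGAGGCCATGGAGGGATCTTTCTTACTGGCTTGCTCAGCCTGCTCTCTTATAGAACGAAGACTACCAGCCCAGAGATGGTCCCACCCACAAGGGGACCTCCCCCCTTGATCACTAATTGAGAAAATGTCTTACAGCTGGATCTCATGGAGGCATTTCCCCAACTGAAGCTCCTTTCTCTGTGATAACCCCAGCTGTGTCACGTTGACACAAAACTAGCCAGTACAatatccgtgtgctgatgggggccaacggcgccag
Gm3143: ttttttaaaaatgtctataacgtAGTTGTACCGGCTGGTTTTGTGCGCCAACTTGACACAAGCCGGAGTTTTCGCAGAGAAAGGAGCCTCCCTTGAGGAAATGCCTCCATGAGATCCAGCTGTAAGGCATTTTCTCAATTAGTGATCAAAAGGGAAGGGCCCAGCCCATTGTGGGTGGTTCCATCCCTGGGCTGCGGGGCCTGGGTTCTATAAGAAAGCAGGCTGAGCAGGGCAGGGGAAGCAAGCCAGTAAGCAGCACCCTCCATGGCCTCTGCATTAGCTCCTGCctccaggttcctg
The windows of Gm36480 and Gm6150 aligned in the same orientation at 88.0% identity over 267 columns. The window of Gm3143 aligned with that of Gm36480 in the opposite orientation at 81.8% identity over 264 columns, so the same block stands reversed there.

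The windows of these 3 models and of Gm30159 each resembled the windows of at least 20 other genes, at 80% identity or more over at least 100 bases. Of the 196 models 69 have a window in RefSeq, so 4 of 69 (5.80%) had such a repeated start, against 22 of 5220 (0.421%) other named genes at the same level and 868 of 27025 (3.21%) of all genes with a window. All 4 were called lower in Nat10 cKO oocytes, and of all 69 models with a window 32 were called lower and 8 higher. Among all 97 tested genes with a repeated start, which include these 4, 23 were called lower and 6 higher, with a median log2 change of -0.07. Of 12458 tested genes with a window, 2231 were called lower and 2455 higher. Repeats are not annotated in the files used, so what the block is was not tested.

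Library depth, recovered as whole reads per gene, was 74098613, 47409048 and 71039900 reads in the Nat10 cKO libraries and 33520334, 34119952 and 65451269 in the WT libraries, and all 196 models had reads in every library. Nat10 itself had 5.72, 5.97 and 6.32 CPM in the Nat10 cKO libraries, against 42.1, 50.1 and 39.4 in the WT libraries (log2 fold change -2.67, SE 0.13, limma adjusted p = 4.28e-08). All 15 listed oocyte markers in the table were above 1 CPM, and their summed level was 36482 to 43003 CPM in Nat10 cKO and 30434 to 31611 in WT libraries; 10 of the 15 were called higher and 4 lower in Nat10 cKO. Of 18 granulosa and cumulus markers 9 were above 1 CPM, with sums of 398 to 440 in Nat10 cKO and 420 to 473 in WT, most of it Serpine2. The sums were 92.2 to 107 against 94.4 to 99.9 CPM for 12 theca, stroma and endothelium markers (4 above 1 CPM; 1 at 0 in every library) and 34.9 to 35.4 against 44.0 to 50.1 for 8 blood and immune markers (2 above 1), in Nat10 cKO against WT. The part of these other cell types in the results was not tested.

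The 196 models spanned 20 chromosomes and a wide range of levels. The lowest mean was 20.2 CPM, the median 43.3 and the highest 2677; 38 reached 100 CPM and 3 reached 1000. The 5 most abundant held 35.4% of the reads assigned to the group. Per length, in TMM-scaled values, the 187 models with a GENCODE annotation ran from 5.03 to 1262 RPKM (reads per kilobase of exon per 1000000 reads), with a median of 37.6. By GENCODE M21 class, 127 were long non-coding, 28 pseudogenes, 26 protein coding and 6 awaiting experimental confirmation, and 9 were not in that annotation. Their median exon length was 1303 bases, against 4695 for other named genes at the same level, and 17 had a single exon.

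Together the models took a smaller share of the reads in the Nat10 cKO oocytes. The share was 1.95%, 1.94% and 1.88% of reads in the Nat10 cKO libraries and 2.25%, 1.97% and 2.26% in the WT libraries. The ranges did not overlap, but WT library 2 lay just above the highest Nat10 cKO library. The difference was -0.233 percentage points, and a two-sided exact permutation test over the 20 assignments gave p = 0.1, the smallest it can give with 3 libraries against 3. For models at 40 CPM or more the difference was -0.194 percentage points (two-sided exact permutation p = 0.3). For Gm rows at 10 CPM or more it was -0.261 (two-sided exact permutation p = 0.1). In pooled oocytes, fewer oocytes with a transcript and less of it per oocyte cannot be told apart.

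In the gene-by-gene comparison, with reads scaled by TMM, 95 of the 196 models (48.5%) fell and 19 (9.69%) rose in Nat10 cKO oocytes at an adjusted p under 0.05, from limma over all 18353 tested genes. The background was 17.6% of tested genes lower and 17.4% higher. The median log2 fold change of the models was -0.29, against 0.00 over all tested genes, on the log2(CPM + 1) scale (the added 1 shrinks the fold changes of low genes). Among the 95 that fell the median size was 0.55 log2 units and 12 fell at least 2-fold, and among the 19 that rose it was 0.46, with 2 at least 2-fold. The 3 libraries of each genotype did not overlap for 104 models lower and 23 higher in Nat10 cKO, where 24.2% and 24.1% of all tested genes did so. Of the 169 models at the threshold in both genotype means, 78 (46.2%) fell and 14 (8.28%) rose, with a smaller median log2 fold change of -0.24.

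These counts depend on the scaling. The deposited values carry 1 factor per library whose origin no label or header states; the deposited table is named for ERCC and a spike-in was added, but whether the factors come from it is not stated. TMM holds the bulk of genes level between libraries, so calls under it are relative to the other genes and not per oocyte. On the deposited values the median change of all tested genes was 0.24 and that of the models 0.06, which is 0.18 below it but no longer negative. On that scale 3 models (Gm48050, Gm36241 and Gm5373) fell and 5 (Gm33962, Gm16286, Gm35167, Gm42953 and Gm19583) rose, and each had the same call under TMM. All 3 that fell had reached the threshold of 20 CPM in the WT mean only, and Gm19583 in the Nat10 cKO mean only. Their place in the group thus rests on the genotype in which they were high. The background there was 1.39% of tested genes lower and 6.57% higher. Because the labels do not say which animals gave which library, the p-values measure only the spread between these libraries.

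**Figure D1:**
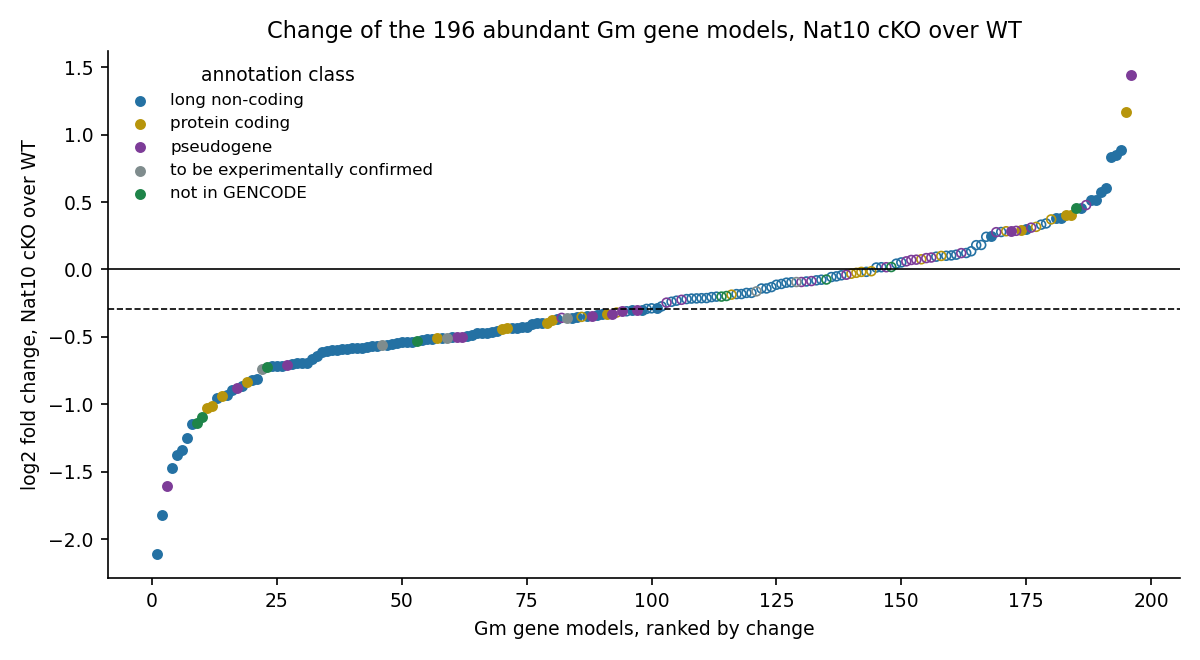
Log2 fold change (Nat10 cKO over WT, TMM-scaled) of each of the 196 models, ranked from the largest fall to the largest rise and coloured by annotation class. Filled points were called at an adjusted p under 0.05 and open points were not; the solid line is the median of all tested genes (0.00) and the dashed line that of the models (-0.29), and 144 of the 196 models lie below 0.

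Long non-coding models, 127 of the 196, made up 68 of the 95 that fell and 12 of the 19 that rose, with a median of -0.34. By GENCODE subclass, 47 of 92 lincRNAs fell and 10 rose, 13 of 25 antisense RNAs fell and 2 rose, and 8 of 10 processed transcripts fell and 0 rose. Of 26 protein-coding models 10 fell and 4 rose, with a median of -0.11, and of 28 pseudogenes 9 fell and 2 rose, with a median of -0.06. All 6 models awaiting confirmation had negative changes, and 4 of them were called. Over all tested genes of every class 17.6% fell and 17.4% rose.

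Long non-coding genes with other kinds of name were counted at the same level. Of 35 long non-coding Rik genes, which carry names from a cDNA collection, 20 fell and 2 rose, with a median of -0.30, and of 29 with other names 9 fell and 3 rose. Protein-coding genes with other names were balanced at this level, with 1261 lower and 1263 higher of 6318. Below the threshold, 479 of 3005 tested Gm rows fell and 167 rose, and the long non-coding rows among them had 296 lower and 71 higher of 1335. Over all levels and names, 521 of 2227 tested long non-coding genes fell and 135 rose. No test of the difference between classes was run.

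**Figure D2:**
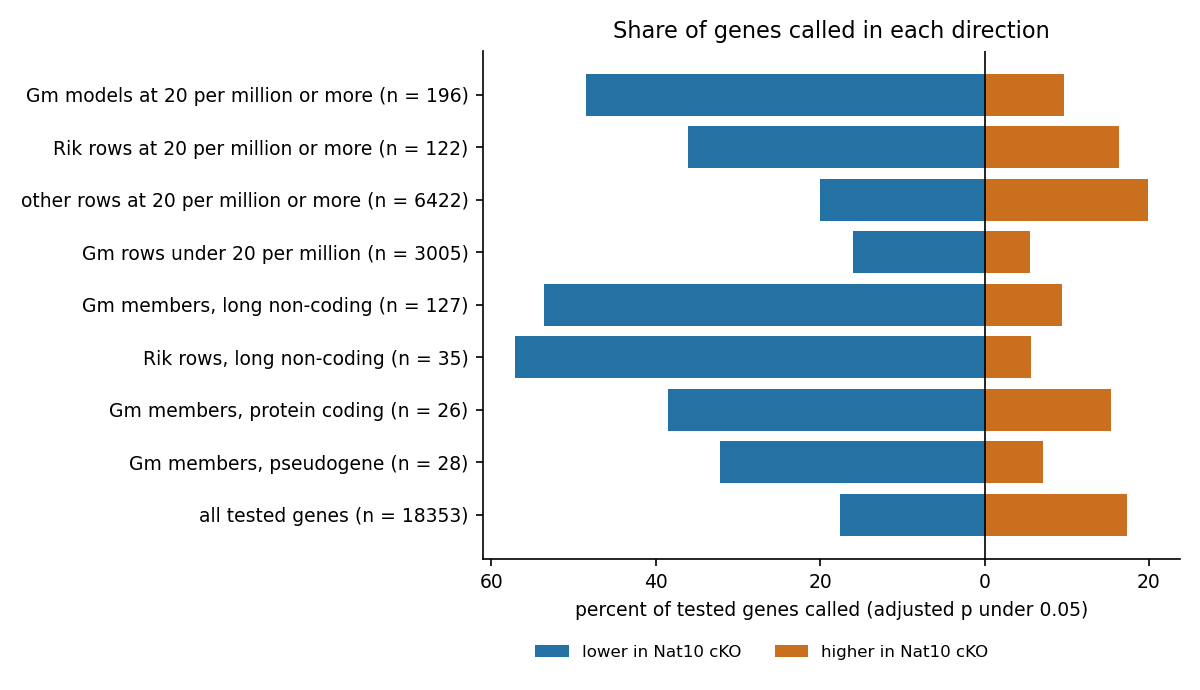
Percent of tested genes called lower (bars to the left of 0) and higher (bars to the right) in Nat10 cKO oocytes at an adjusted p under 0.05, with the number of tested genes in each row label. The models reached 48.5% lower and 9.69% higher, and all tested genes 17.6% and 17.4%.

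The counts were also split by base composition. With up to 42% GC in their exons 20 of 47 models fell and 4 rose, with 42 to 46% GC 32 of 50 fell and 3 rose, with 46 to 50% GC 28 of 52 fell and 4 rose, and above 50% GC 11 of 38 fell and 7 rose. The share that fell thus had no steady order over the 4 ranges. Other named genes at the same level, in the same order of ranges, had 215 lower and 157 higher of 931, 323 and 275 of 1466, 322 and 269 of 1477, and 418 and 570 of 2495. The part of GC content in the result was not tested.

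The 10 largest falls and 10 largest rises were taken from called models whose groups did not overlap, so their lack of overlap follows from the choice. Among the falls, Gm48050, Gm36241, Gm5373 and Gm42947 had reached 20 CPM in the WT mean only. Among the rises, Gm19583, Gm16050 and Gm48969 had reached it in the Nat10 cKO mean only. The place of these models in the group rests on the genotype in which they were high. Of the 10 largest falls, 7 were in long non-coding RNAs, 1 in a pseudogene and 2 in models with no GENCODE class. Gm48050, a 3-exon non-coding transcript at chr13:98608411-98617662, had 13.7, 11.3 and 15.0 CPM in Nat10 cKO oocytes, against 70.6, 51.4 and 61.3 in WT oocytes. Every Nat10 cKO library was far below every WT library, and the log2 fold change was -2.11 (SE 0.14, adjusted p = 1.08e-06). Gm36241, also a processed transcript, at chr5:149903197-149911114, had 18.2, 12.1 and 22.3 CPM in Nat10 cKO and 65.9, 55.1 and 67.4 in WT. Its groups were as clearly apart, with a log2 fold change of -1.82 (SE 0.17, adjusted p = 1.9e-05). Gm5373 is a transcribed unprocessed pseudogene of 10 exons at chr8:71824641-71857281, and it had 13.9, 11.4 and 11.8 CPM in Nat10 cKO and 40.9, 32.9 and 45.4 in WT. It fell by 1.60 on the log2 scale (SE 0.14, adjusted p = 9.08e-06), while its nearest protein-coding gene Zfp709, 24738 bases away, averaged 57.7 ± 3.45 and 58.5 ± 7.92 CPM in Nat10 cKO and WT (SD, n = 3 each).

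The next 7 falls had log2 fold changes from -1.47 to -1.09. The lincRNA Gm11381, on chromosome 13, averaged 20.7 ± 5.62 CPM in Nat10 cKO and 58.3 ± 7.35 in WT (SD, n = 3 each). Its level was lowest in Nat10 cKO library 2, at 15.1. The lincRNA Gm43269 had the highest level per length of these, at 183 RPKM, with 61.4, 49.1 and 56.1 CPM in Nat10 cKO and 149, 112 and 142 CPM in WT (log2 fold change -1.25). It lies 29719 bases from Tbx5, a heart and limb transcription factor that was at 0.317 CPM in Nat10 cKO and 0.502 in WT oocytes. Gm31925 had 37.5, 29.7 and 42.8 CPM in Nat10 cKO and 104, 76.0 and 103 in WT, a fall of 1.34 on the log2 scale. Its nearest protein-coding gene Suco, 13776 bases away, also fell (log2 fold change -0.35, adjusted p = 0.020). Gm42947, Gm49371, Gm49870 and Gm19784 had log2 fold changes from -1.38 to -1.09, and the last 2 of them are not in GENCODE M21.

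Fewer models rose. Gm33962, a transcribed unprocessed pseudogene at chr6:130868228-130888691, had 109, 108 and 86.9 CPM in Nat10 cKO oocytes, against 46.1, 25.2 and 41.3 in WT oocytes. The groups did not overlap, as the choice required, and it rose by 1.44 on the log2 scale (SE 0.18, adjusted p = 0.000135). Gm16286, a protein-coding model on chromosome 18, had 46.4, 61.4 and 43.8 CPM in Nat10 cKO and 16.2, 28.1 and 22.6 in WT (log2 fold change 1.16, SE 0.18, adjusted p = 0.000359). It shares 457 exon bases on the same strand with Txnl4a, a spliceosome protein gene, so their reads could not be cleanly split; Txnl4a averaged 43.7 ± 1.93 and 43.6 ± 2.91 CPM in Nat10 cKO and WT (SD, n = 3 each).

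The other 8 of the largest rises were lincRNAs and one antisense RNA. Gm35167, on chromosome 15, had 40.4, 47.6 and 39.2 CPM in Nat10 cKO and 24.1, 19.6 and 23.6 in WT, a log2 fold change of 0.89. Gm42953, on chromosome 5, had 42.1, 45.5 and 37.3 CPM in Nat10 cKO and 22.6, 21.1 and 24.3 in WT, a log2 fold change of 0.85. By the same choice, neither overlapped between genotypes. The lincRNA Gm19583 had 27.1, 25.8 and 30.1 CPM in Nat10 cKO and 14.5, 16.0 and 14.6 in WT, a log2 fold change of 0.83 (SE 0.12, adjusted p = 0.00025). Its far end lies 5185 bases from Pdgfra, a growth factor receptor of stromal cells that was at 0.511 CPM in Nat10 cKO and 0.472 in WT oocytes. Gm48775, Gm16050, Gm4632, Gm32635 and Gm48969 had log2 fold changes from 0.60 to 0.46. Gm4632 is the antisense RNA, inside Vwa8, and Vwa8 itself fell (log2 fold change -0.54, adjusted p = 0.0024).

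The start of Gm19583 is shown as that of a model that rose, at chr5:75110071-75110370 on the plus strand of GRCm38.p6, with the 50 bases from the start onward in capitals. It resembled no other gene's window by the measure used above.
Gm19583: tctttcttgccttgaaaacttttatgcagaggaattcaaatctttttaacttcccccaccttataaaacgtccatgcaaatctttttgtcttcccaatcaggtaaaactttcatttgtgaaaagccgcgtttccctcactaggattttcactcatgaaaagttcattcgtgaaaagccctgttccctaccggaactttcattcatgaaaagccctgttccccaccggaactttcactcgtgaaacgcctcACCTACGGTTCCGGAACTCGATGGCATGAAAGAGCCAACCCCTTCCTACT

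**Figure D3:**
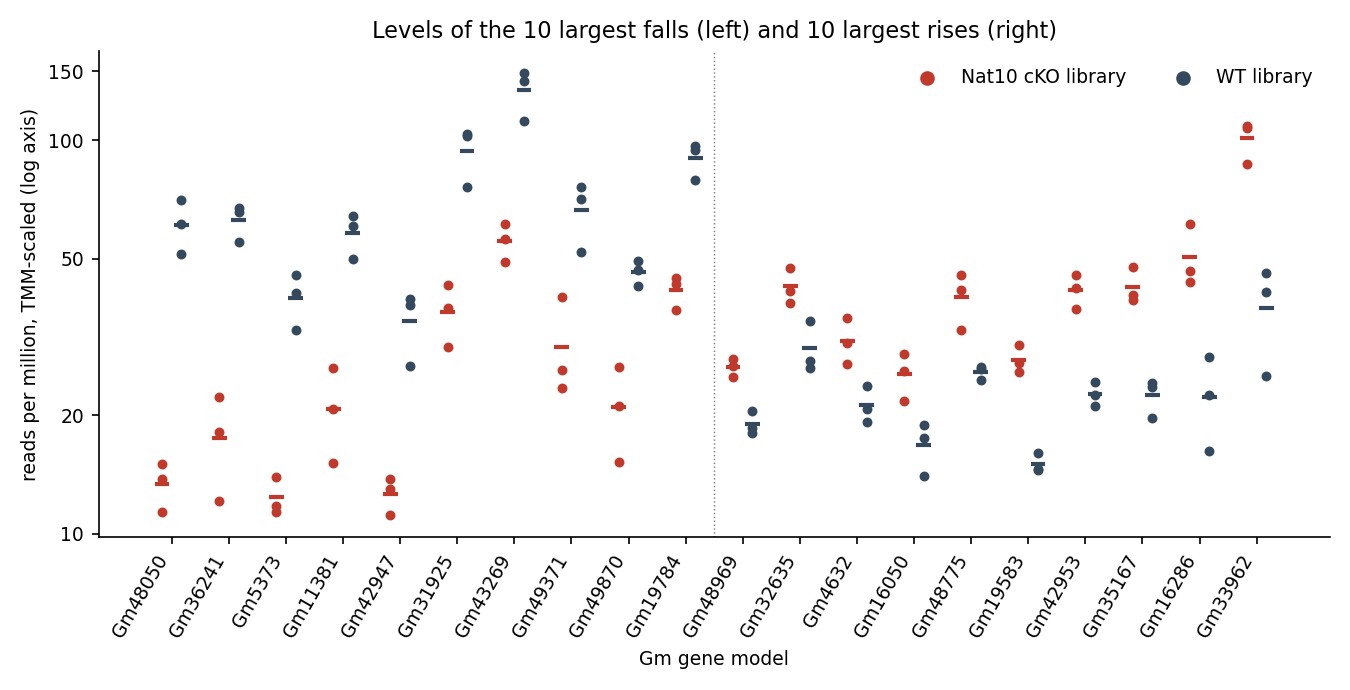
CPM (TMM-scaled, log axis) of the 10 models with the largest falls, left of the dotted line, and the 10 with the largest rises, right of it; each point is a library, Nat10 cKO left of WT within a model, and bars are means. The models were chosen among those whose groups do not overlap. On the log axis Gm48050, at 11.3 to 15.0 in Nat10 cKO against 51.4 to 70.6 in WT, has the widest gap.

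Of the 8 most abundant models per length, 4 belong to the PRAME and oogenesin family. By name in RefSeq or by transcripts at least 80% identical over 50% of their length, 9 of the 196 models are of this family, of which RefSeq names 6, such as Gm13084 as Pramel26 and Gm13023 as Pramel25. They held 0.700%, 0.721% and 0.653% of reads in the Nat10 cKO libraries and 0.764%, 0.622% and 0.762% in the WT libraries, which overlap (two-sided exact permutation p = 0.6). The other 187 models held 1.25%, 1.22% and 1.23% of reads in Nat10 cKO and 1.48%, 1.35% and 1.49% in WT, which do not overlap (exact p = 0.1, the smallest possible). WT library 2 was the lowest of the 3 WT libraries in both parts.

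Within the family the changes were small and went both ways. Gm13084 had the highest level per length of all the models, 1304 RPKM in Nat10 cKO and 1220 in WT. Its levels were 2847, 2995 and 2468 CPM in Nat10 cKO and 2803, 2195 and 2775 in WT, which overlap (log2 fold change 0.10, SE 0.11, adjusted p = 0.489). Gm13089, named Pramel23, had 299, 323 and 266 CPM in Nat10 cKO and 237, 186 and 252 in WT, and it rose by 0.40 on the log2 scale (adjusted p = 0.0161; 0.061 without Nat10 cKO library 2). Gm10436, named Pramel51, had 1175, 1245 and 1188 CPM in Nat10 cKO and 1739, 1307 and 1669 in WT, a log2 fold change of -0.38 (adjusted p = 0.0121). Gm2042 had 306, 330 and 321 CPM in Nat10 cKO and 493, 341 and 479 in WT, a log2 fold change of -0.44 (adjusted p = 0.0138). Both fell, but both calls were lost when Nat10 cKO library 1, WT library 1 or WT library 3 was left out, with adjusted p from 0.056 to 0.072 for Gm10436 and from 0.058 to 0.083 for Gm2042. Gm6205 fell as well (log2 fold change -0.44, adjusted p = 0.020), and Gm3259 was not called (log2 fold change -0.35, adjusted p = 0.077). On the deposited scaling none of the 4 called models of the family was called. Gm13023, Gm13058 and Gm3259 turned positive there, Gm3259 only to 0.0038.

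Of 10 relatives listed by name, 4 could be tested and the other 6, Pramel1 and Pramel3 to Pramel7, were at most at 0.068 CPM. Oog1, whose transcript is 98.8% identical to that of Gm10436 and 99.6% to that of Gm2042, fell like them (log2 fold change -0.63, adjusted p = 0.000742). Oog3 fell by 0.40 on the log2 scale (adjusted p = 0.00353). Oog2 and Oog4 had log2 changes of 0.15 and 0.25 and were not called. On the deposited scaling none of these 4 was called. Oog1 was at -0.27 and Oog3 at -0.04 there (limma adjusted p = 0.74 and 0.96). No source states how reads shared by such near-identical transcripts were counted, so the split between Gm10436, Gm2042, Gm13023 and Oog1, and between Gm13084 and Oog2, is uncertain.

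**Figure D4:**
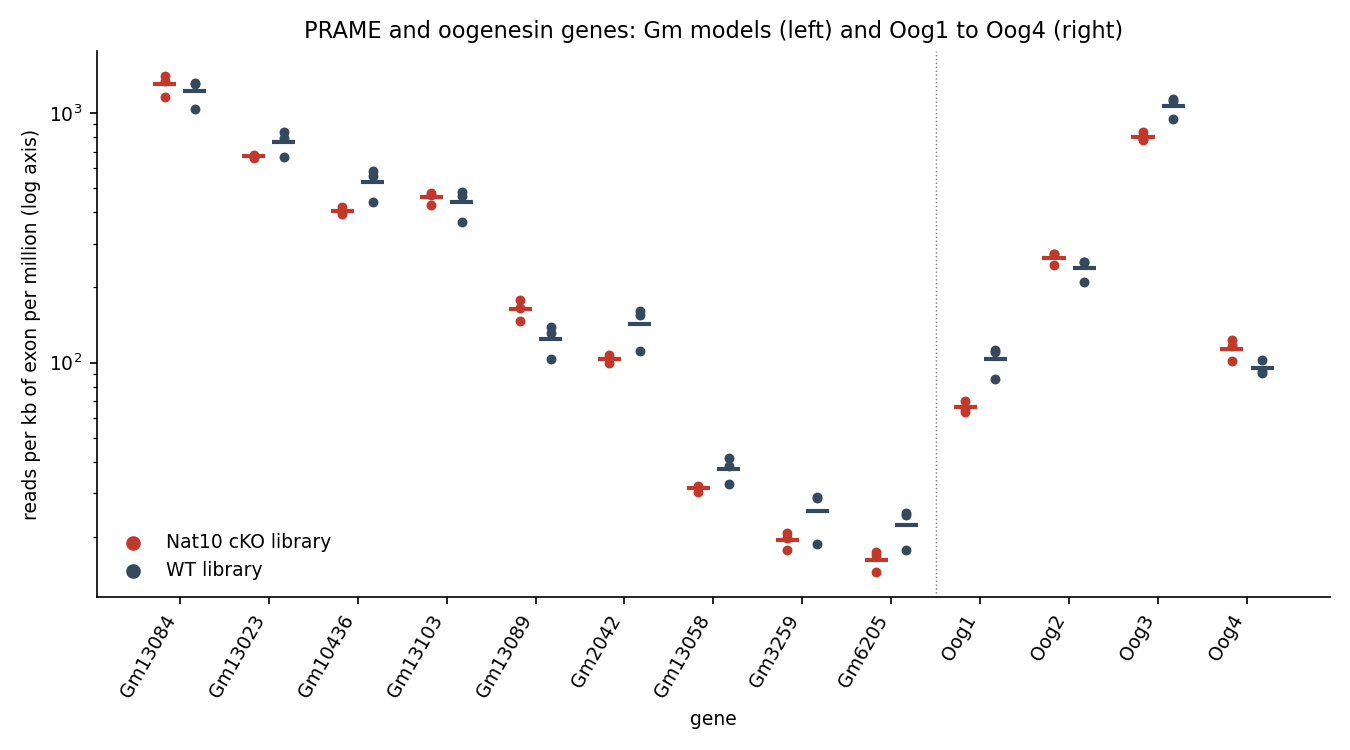
RPKM (log axis) of the 9 PRAME and oogenesin models, left of the dotted line, and Oog1 to Oog4, right of it; each point is a library, Nat10 cKO left of WT, and bars are means. Gm13084 is highest at about 1304 in Nat10 cKO and 1220 in WT, and one WT library lies below the other two in most of these genes.

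Models that neighbour each other did not always move together. There are 4 runs of at least 3 models with gaps of at most 500 kb. The run at chr4:143595062-143853637 holds 5 of the PRAME models, of which Gm13089 rose, and Gm13058, Gm13023, Gm13084 and Gm13103 had log2 changes from -0.25 to 0.10 and were not called. The run at chr12:87954080-88287069 holds Gm2042 and Gm10436, which fell, and the processed pseudogene Gm7104, at 0.06. Without WT library 2, Gm13023 and Gm13058 were called lower (adjusted p = 0.0081 and 0.022).

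In the run at chr6:130728161-131003919 the 3 members are pseudogenes of like length, and the middle one, Gm33962, was the largest rise of all. Its neighbour Gm44527 had 70.6, 68.3 and 63.1 CPM in Nat10 cKO and 105, 65.9 and 93.3 in WT, which overlap (log2 fold change -0.36, adjusted p = 0.064; 0.0015 without WT library 2 and 0.049 with edgeR). Its transcript is 87.5% identical to that of Gm44133, and that of Gm33962 83.7%, so reads may be shared among the 3. Gm44133 had 85.5, 87.3 and 64.6 CPM in Nat10 cKO and 89.5, 55.5 and 83.5 in WT, at a log2 fold change of 0.07. At chr9:74847983-75486681, Gm16551 and the antisense RNA Gm48677 fell by 0.69 and 0.93 on the log2 scale, and the pseudogene Gm7972 was at -0.04. Gnb5, a G protein subunit gene whose body holds Gm48677, averaged 21.7 ± 0.43 CPM in Nat10 cKO and 22.1 ± 1.00 in WT (SD, n = 3 each).

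Of the 8 most abundant models per length, 3 were long non-coding. Gm1965, a lincRNA on chromosome 6, had 925, 966 and 853 CPM in Nat10 cKO and 1180, 917 and 1101 in WT, and was not called (log2 fold change -0.21, adjusted p = 0.107; 0.0086 without WT library 2). Gm42817, antisense within Tmem132d, had 144, 120 and 151 CPM in Nat10 cKO and 217, 194 and 210 in WT. It fell by 0.58 on the log2 scale (adjusted p = 0.000823), and Tmem132d itself was at -0.19 and not called. Gm3143, whose start is printed above, had 224, 198 and 225 CPM in Nat10 cKO and 282, 261 and 290 in WT, a log2 fold change of -0.36 (SE 0.09, adjusted p = 0.00637). It lies 47179 bases from Sox2, a stem cell transcription factor. Sox2 was at 0.497 CPM in Nat10 cKO and 1.04 in WT, near the floor set by the 1 CPM added before the log. At that level it was called lower (log2 fold change -0.47, adjusted p = 0.040). Gm36480 averaged 85.0 ± 13.1 and Gm6150 34.6 ± 2.56 CPM in Nat10 cKO, against 130 ± 23.4 and 49.4 ± 6.14 in WT (SD, n = 3 each), falls of 0.60 and 0.50 on the log2 scale.

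The nearest protein-coding gene was also counted over all the models. For the 95 models that fell, 70 such genes were tested, of which 20 fell, 11 rose and 39 were not called. For the 19 that rose, 13 were tested, of which 4 fell and none rose. For the 82 models not called, 58 were tested, of which 14 fell and 13 rose, and over all tested genes 17.6% fell and 17.4% rose. Whether these shares differ was not tested. Of 30 models whose exons overlap another gene's, 13 fell and 2 rose, and of the 157 annotated models with no overlap 78 fell and 16 rose.

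Models with near-identical copies are given apart, because their reads may be shared between genes. Of 20 models with a transcript of another gene at 95% identity or more over 50% of their length, 7 fell and none rose, and of the 167 without one 84 fell and 18 rose. Gm10736, a single-exon pseudogene of 78 bases identical to the ribosomal protein transcript Rpl41, had 52.2, 41.1 and 41.4 CPM in Nat10 cKO and 47.8, 47.0 and 63.7 in WT, and was not called (log2 fold change -0.22), while Rpl41 fell by 0.25 on the log2 scale (adjusted p = 0.032). Gm5946, named here after its values were seen, is 97.0% identical to Bmi1, a Polycomb gene, and averaged 87.3 ± 4.23 CPM in Nat10 cKO and 163 ± 27.7 in WT (SD, n = 3 each). Both fell, with log2 fold changes of -0.88 and -0.57. Of 9 models like zinc finger genes 1 fell and none rose, with a median log2 fold change of 0.28. Of 5 like ribosomal protein genes 1 fell and none rose, with a median of -0.22. Over all tested genes 17.6% fell and 17.4% rose, and these small counts were not tested against those shares.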

How the data were processed

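Poly(A) RNA of 6 oocyte pools was sequenced by the Smart-seq2 protocol. Per the submitters' processing notes, the authors used Trim Galore 0.6.7, STAR 2.7.10a and featureCounts with mm10. No label states the strand use or gene annotation. WT library 1 was deposited as counts. For the other 5 libraries the deposited signal values are whole reads multiplied by 1 factor per library, and dividing by it gave whole reads for 100% of values (tolerance 0.001). ERCC rows were not used here.

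Reads were filtered (filterByExpr, minimum count 10), scaled by TMM (edgeR 4.0.16) and tested as log2(CPM + 1) with limma 3.58.1 (trended, robust), with Benjamini-Hochberg adjustment over 18353 genes. The fit was tested on simulated data. edgeR quasi-likelihood and DESeq2 1.42.0 tests, other scalings and leaving out each library were tried as alternatives. GENCODE M21 gave classes and coordinates (GRCm38), BLAST 2.17.0 the similarities, and RefSeq GRCm38.p6 the start windows. Genes were named by rule: the 10 largest falls and 10 largest rises among called models with groups apart, the 8 most abundant per length, the 2 nearest each side of the threshold, 4 runs and 4 near-identical copies. The members and lists were chosen with earlier results of these data known.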

Additional observations from a re-analysis of the deposited data

How the results depend on the processing

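Counts of models higher and lower were 21 and 98 with DESeq2, 19 and 96 with edgeR, 19 and 93 with median-of-ratios factors, 21 and 88 with library sizes only, 14 and 78 without a filter, and 19 and 94 with a pseudocount of 0.1. Of the 95 models that fell, 78 to 95 were called lower in each of these 6 alternatives. Over all tested genes the main fit called 6422 in both directions together. In the order above, the alternatives called 6520, 6202, 6437, 6372, 4924 and 6337. On the deposited scaling 1461 genes were called in all, 5 models were higher and 3 lower, and the median change of the models was 0.061. Among the models named by rule, Gm13023 (0.17), Gm10736 (0.13), Gm1965 (0.15), Gm13058 (0.11) and Gm7972 (0.31) turned positive there. At a threshold of 40 CPM 5 rose (4.72%) and 57 fell (53.8%) of 106 models. At 10 CPM 31 rose (9.28%) and 140 fell (41.9%) of 334. The shares of the 196 models were 9.69% and 48.5%, so the shares as well as the list sizes differed. Both lists were read from the main fit, where 17.6% of tested genes fell and 17.4% rose. Leaving out each library gave 14 to 22 higher and 67 to 105 lower, while 4309 to 6682 of all tested genes were called. The median of the models then ran from -0.33 to -0.24, and the share difference from -0.325 to -0.184 percentage points. A two-sided exact permutation test of the share gave p = 0.2 when any Nat10 cKO library was left out. The same two-sided exact permutation test gave p = 0.1 when any WT library was left out. Log2 changes near 0 crossed it when a library was left out: Gm13084 from -0.0044 to 0.18, Gm13103 from -0.037 to 0.15, Gm44133 from -0.13 to 0.21, Gm7104 from -0.026 to 0.20 and Gm7972 from -0.094 to 0.013.

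With the replicate block 17 models rose and 94 fell, among 6234 genes called in all. To look for pairing, each gene's genotype mean was subtracted from its log2 levels, and the remaining deviations were correlated between Nat10 cKO and WT libraries. These deviations, not the levels themselves, correlated at 0.079, 0.075 and -0.12 for same-numbered libraries. The numbers were thus not taken to pair the libraries, and not every library's deviations correlated best with those of its own number. WT library 2 is 1 of the 2 shallowest and carries the highest deposited factor (1.38); 48 of the 196 models were lowest in it and 12 highest. Nat10 cKO library 2 was the lowest for 98 models and the highest for 33.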

Other observations

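The 2 rows left out of the group by name were lower in the Nat10 cKO libraries. Gm15564 was at 21.3, 8.40 and 26.9 CPM in Nat10 cKO and 52.5, 63.8 and 58.4 in WT, and Gm23935 at 4.64, 3.33 and 6.78 in Nat10 cKO and 21.2, 23.7 and 17.2 in WT. Neither row's groups overlap, and together they held at most 0.00875% of a library's reads.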
